A study of Mus musculus with 12 samples.

Results

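The genes described here encode the machinery through which a T cell senses interferon: the receptor chains Ifnar1, Ifnar2, Ifngr1 and Ifngr2, the kinases Jak1, Jak2 and Tyk2, and the transcription factors Stat2 and Irf9. These 9 genes were chosen by name, with earlier results of these data known. Their rows were found through the gene identifiers in GENCODE mouse release M21. All 9 were present in both deposited tables, among 55487 identifiers, and all 9 passed the filter on low counts in both.

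Type I interferons bind a receptor built of IFNAR1 and IFNAR2, which carry the kinases TYK2 and JAK1. Interferon gamma binds a receptor built of IFNGR1 and IFNGR2, which carry JAK1 and JAK2. After type I interferon, phosphorylated STAT2 and IRF9 act in the complex ISGF3, which binds interferon-stimulated response elements in antiviral genes. Genes that respond to interferon gamma are known to carry interferon-gamma activated sites. Stat2 and Irf9 are themselves known as interferon-inducible genes, and the receptor chains and JAK kinases are made by most cells without interferon.

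The samples were OT-1 CD8+ T cells, which carry a transgenic T cell receptor for an ovalbumin peptide, in 4 groups of 3. Female and Male cells came from spleens of either sex and were activated for 3 days with beads against CD3 and CD28 in the presence of IL2. WT and KD cells came from male cells of another batch, kept in culture for 3 days once electroporated. Into KD cells went Cas9 together with guide RNA aimed at Kdm5d, a histone demethylase gene on the Y chromosome, and into WT cells the guide RNA without Cas9. No group received Cas9 without the Kdm5d guide, so the effect of Cas9 and that of less Kdm5d cannot be told apart in KD against WT. The ages of the mice and the number of mice or cultures behind the replicates were not given in the sources used here, so the p-values measure the spread between these samples, which may be technical.

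Total counts ranged from 78748647 to 110803318 per sample. Levels are given as CPM, the count of a gene scaled to a common total per library. Kdm5d, the targeted gene, was at 49.5 to 52.2 CPM in Male libraries, 48.4 to 52.4 CPM in WT libraries and 21.4 to 22.9 CPM in KD libraries, and had at most 2 counts in a Female library. The markers listed for CD8 T cells (Cd3d, Cd3e, Cd3g, Cd8a, Cd8b1, Lck and Cd247) were present, with a sum over 7 genes of 2088 to 2634 CPM. This sum does not give Cd8a and Cd8b1 apart from the others. The B cell gene Ms4a1, the red cell globin genes and S100a8 and S100a9 had 0 counts in each library, and the 8 neutrophil and red cell markers summed to at most 1.402 CPM. In WT no other B cell marker was at 0, and the 6 B cell markers summed to 4.796 to 7.595 CPM over all libraries. Mitochondrial transcripts took 0.604% to 0.71% of the counts.

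In Male against Female, the interferon genes fell into opposing classes. The 4 receptor chains and the 3 kinases were each lower in Male, by 0.12 to 0.50 on the log2 scale, and Stat2 and Irf9 were higher, by 1.26 and 0.71. All 9 passed the threshold of an adjusted p under 0.05 (edgeR's quasi-likelihood test, Benjamini-Hochberg adjustment over 20208 genes). Of all genes tested, 26.3% were called lower and 23.5% higher in Male, 49.8% in all. The Male and Female values did not overlap for any of the 9 genes, as was so for 58.3% of all genes, 28.6% higher and 29.7% lower in Male.

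In KD against WT, 8 of the 9 genes were called and all 8 were lower in KD, by 0.24 to 0.64 on the log2 scale, and Ifngr2, the remaining gene, had a log2 fold change of -0.19 that did not pass the threshold. Of 20413 genes tested, 18.4% were called lower in KD, 16.8% higher and 35.1% in either direction. The groups did not overlap for those 8 genes, nor for 46.8% of all genes (23.2% higher and 23.6% lower in KD libraries). Over the 9 genes the median log2 fold change was -0.35, and over all genes it was 0.0124. Stat2 and Irf9 thus were higher in Male than in Female and lower in KD than in WT, and the receptor chains and kinases, Ifngr2 in KD excepted, were lower in both. RNA was taken from whole cultures, so fewer cells with a transcript and less transcript per cell cannot be told apart.

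**Figure D1:**
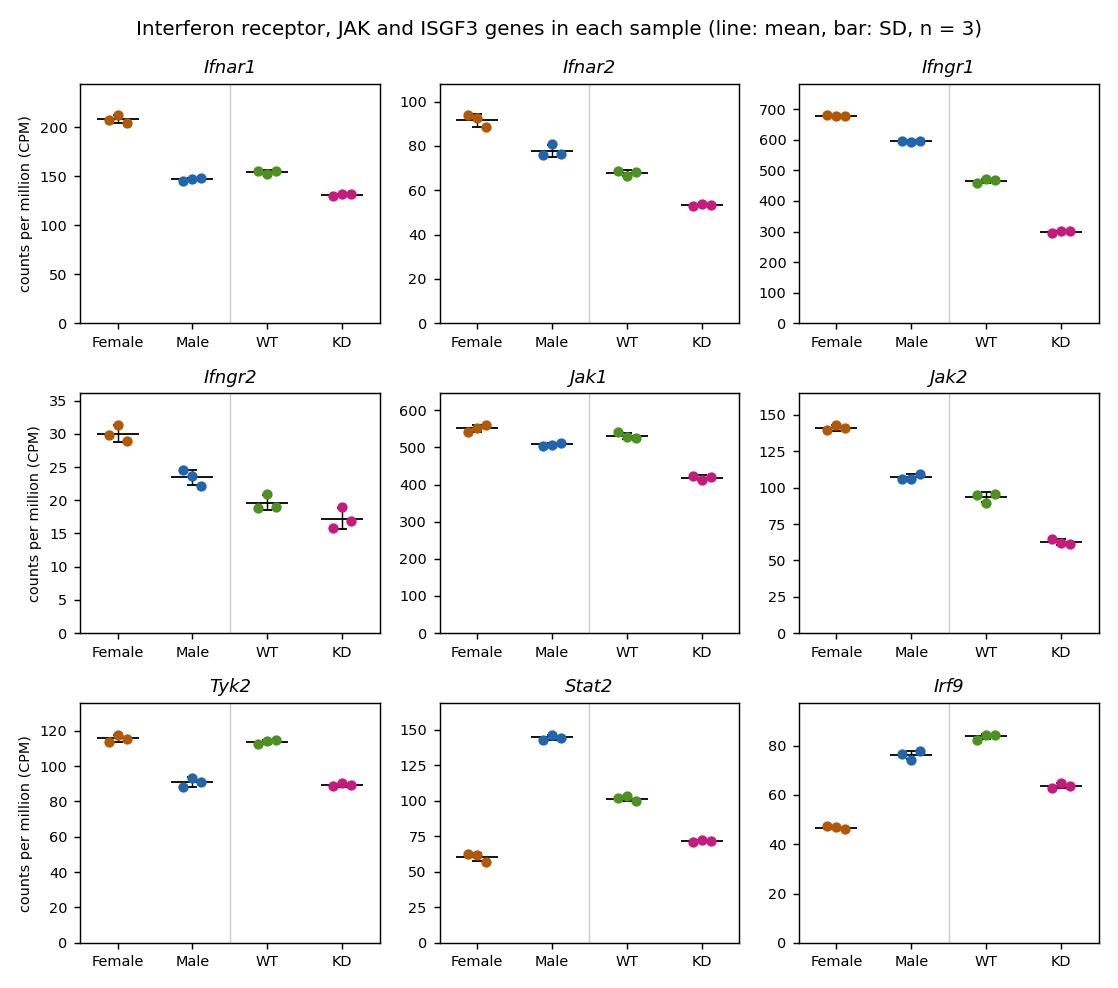
CPM of each of the 9 genes (vertical axes, from 0) in the 12 samples, with 1 point per sample, a line at the group mean and a bar for the SD (n = 3). The grey line parts the Female and Male table from the WT and KD table, which were scaled separately. Stat2 and Irf9 are the panels in which Male lies above Female.

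**Figure D2:**
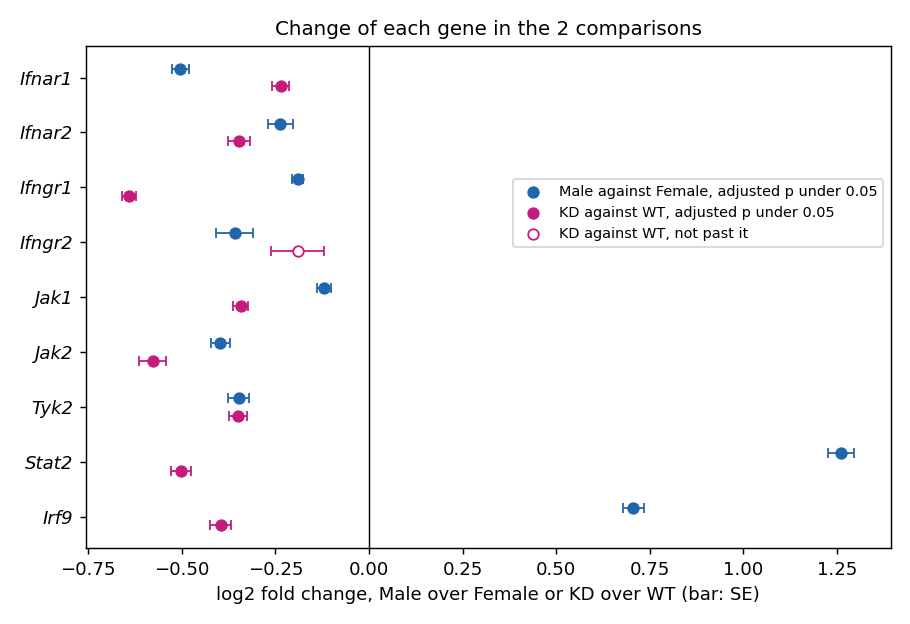
Log2 fold change of each gene, Male over Female and KD over WT, with its SE. Filled points passed an adjusted p under 0.05, and the open point is Ifngr2 in KD against WT. Only Stat2 and Irf9 have points to the right of 0, both in Male against Female.

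Markers of other cells differed between some groups. The 9 macrophage and dendritic cell markers summed to 13.21 to 14.68 CPM in WT and 8.722 to 9.866 CPM in KD, with Adgre1 and Siglech at 0 in both groups and Flt3 and Clec9a at 0 in KD, and to 6.25 to 6.82 CPM in Female and Male. The 7 CD8 T cell markers summed to 2586 to 2634 CPM in WT and 2256 to 2313 CPM in KD, and between the sexes their sums overlapped. Of these 7, 1 was called higher and 3 lower in Male, and 0 higher and 5 lower in KD. Over all genes, 23.5% were called higher and 26.3% lower in Male, and 16.8% higher and 18.4% lower in KD. The 3 CD4 T cell markers summed to 87.2 to 89.6 CPM in Female and 53.9 to 57.3 CPM in Male, with Cd4 itself at 0 in Male and at most 19 counts in any library. The 6 B cell markers summed to 4.87 to 4.99 CPM in Female and 5.16 to 5.93 CPM in Male, and to 6.14 to 7.595 CPM in WT and 4.796 to 6.06 CPM in KD. The 3 NK cell markers summed to 0.484 to 0.792 CPM in Female and Male, to 1.65 to 1.89 CPM in WT and to 0.735 to 1.38 CPM in KD. The part of these differences in the changes of the 9 genes was not tested.

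The ligands were scarce in these libraries. Of 11 listed interferon genes, which include 5 interferon alpha genes and Ifnb1, 3 passed the low-count filter in the Female and Male table and 2 in the WT and KD table. Ifnb1 had 14 counts over all 12 libraries, and Ifnl2 and Ifnl3 had 0. Ifng, which encodes interferon gamma, was at 0.378, 0.542 and 0.278 CPM in Female and 2.65, 1.92 and 2.09 CPM in Male. Ifng was higher in Male by 2.47 on the log2 scale (SE 0.26, edgeR adjusted p 1.9e-05). In the electroporated cells Ifng was at 6.10, 6.68 and 6.86 CPM in WT and 4.76, 5.09 and 4.73 CPM in KD, with -0.43 as log2 fold change (SE 0.0896, edgeR adjusted p 0.00388). The groups did not overlap in either table. Ifna2 was the other ligand called, higher in Male by 2.01 on the log2 scale (SE 0.535, edgeR adjusted p 0.01), at 0.0319 to 0.2487 CPM per library. Ifnk did not pass the threshold in either comparison (edgeR adjusted p 0.501 and 0.967).

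Ifnar1 (ENSMUSG00000022967, chr16:91485238-91507441, plus strand, GRCm38) encodes the chain that carries TYK2. It was at 207.6, 212.6 and 204.8 CPM in the Female libraries and at 145.5, 147.0 and 148.2 CPM in the Male libraries. Each Male library was thus below each Female library. The log2 fold change, -0.50 (SE 0.0228, edgeR adjusted p 3.39e-08), was the largest decrease among the 7 receptor and kinase genes in this comparison. In WT it was at 154.9, 152.4 and 155.4 CPM and in KD at 129.4, 131.5 and 131.9 CPM, and it fell by 15.1% (log2 fold change -0.24, SE 0.0226, edgeR adjusted p 2.05e-05).

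Ifnar2 (ENSMUSG00000022971, chr16:91372783-91405589, plus strand) encodes the chain that carries JAK1 and binds STAT2. Female libraries held it at 93.99, 92.54 and 88.39 CPM and Male libraries at 75.91, 80.79 and 76.49 CPM. The log2 fold change was -0.24 (SE 0.0332, edgeR adjusted p 0.000155), with no overlap of the groups. WT libraries were at 68.59, 66.29 and 68.43 CPM and KD libraries at 52.87, 53.76 and 53.20 CPM, and the gene fell by 21.4% (log2 fold change -0.35, SE 0.0303, edgeR adjusted p 1.09e-05). Soluble and membrane-bound forms of IFNAR2 are made from this gene, and counts per gene do not tell them apart.

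Ifngr1 (ENSMUSG00000020009, chr10:19591949-19610229, plus strand) encodes the ligand-binding chain of the interferon gamma receptor. It was at 681.9, 679.1 and 677.8 CPM in Female and 597.6, 591.6 and 597.7 CPM in Male, which was a fall by 12.4% (log2 fold change -0.19, SE 0.0147, edgeR adjusted p 1.73e-06). In WT it was at 459.6, 473.2 and 467.6 CPM and in KD at 295.9, 300.7 and 301.9 CPM. It fell by 35.8% in KD, with -0.64 as log2 fold change (SE 0.0188, edgeR adjusted p 6.1e-09), which was the largest change of the 9 genes in that comparison. The replicates of a group differed by far less than the groups did.

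Ifngr2 (ENSMUSG00000022965, chr16:91547072-91565623, plus strand) encodes the signalling chain of the same receptor and had the fewest counts of the 9 genes, 1270 to 2950 per library. It was at 29.78, 31.37 and 28.97 CPM in Female and 24.53, 23.59 and 22.18 CPM in Male, with -0.36 as log2 fold change (SE 0.0494, edgeR adjusted p 0.000143). In WT it was at 18.9, 21 and 19.05 CPM and in KD at 15.88, 18.92 and 16.8 CPM. KD replicate 2 lay just above the lowest WT library, so these groups overlapped, and the log2 fold change of -0.19 did not pass the threshold (SE 0.0705, edgeR adjusted p 0.0613). Without KD replicate 2 it was -0.27 and passed it (edgeR adjusted p 0.0118), and over the other 5 single libraries left out and 12 other settings the adjusted p ran from 0.0193 to 0.21.

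Jak1 (ENSMUSG00000028530, chr4:101152367-101265282, minus strand) encodes the kinase that serves both interferon receptors and many interleukin receptors. Its level differed least between the sexes: 542.5, 552.7 and 561.4 CPM in Female against 505.3, 508.0 and 511.5 CPM in Male. The log2 fold change was -0.12 (SE 0.0178, edgeR adjusted p 0.000246), with no overlap, and -0.07 when protein-coding genes alone were fitted (edgeR adjusted p 0.00883). In WT it was at 541.2, 527.9 and 525.1 CPM and in KD at 424.1, 412.9 and 420.2 CPM, and it fell by 21.1% (log2 fold change -0.34, SE 0.019, edgeR adjusted p 4.55e-07).

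Jak2 (ENSMUSG00000024789, chr19:29251828-29313080, plus strand) encodes the kinase carried by IFNGR2. Female libraries were at 139.4, 143.3 and 140.9 CPM and Male libraries at 105.9, 106.2 and 109.6 CPM, with -0.40 as log2 fold change (SE 0.0245, edgeR adjusted p 3.23e-07). In WT it was at 95.27, 89.37 and 95.65 CPM and in KD at 64.55, 62.08 and 61.21 CPM. With a fall by 33% (log2 fold change -0.58, SE 0.036, edgeR adjusted p 1e-06), Jak2 changed most among the kinases in both comparisons.

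Tyk2 (ENSMUSG00000032175, chr9:21104068-21131243, minus strand) encodes the kinase carried by IFNAR1 and also by the receptor for IL12. It was at 113.8, 117.8 and 115.5 CPM in Female and at 88.25, 93.44 and 91.12 CPM in Male. WT libraries were at 112.6, 114.0 and 114.7 CPM and KD libraries at 88.51, 90.18 and 89.0 CPM. The groups did not overlap in either table, and Tyk2 changed by nearly the same amount in both comparisons, with log2 fold changes of -0.35 in Male against Female (SE 0.0279, edgeR adjusted p 2.33e-06) and -0.35 in KD against WT (SE 0.0247, edgeR adjusted p 2.39e-06).

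Stat2 (ENSMUSG00000040033, chr10:128270559-128292849, plus strand) encodes the STAT protein particular to type I and type III interferon signalling. Its promoter is printed because Stat2 had the largest change of the 9 genes and its window holds the core letters of an interferon-stimulated response element. Windows of 250 bases before to 50 after each RefSeq start (GRCm38.p6) were found for all 9 genes, 10 windows in all with 2 for Irf9. The core, GAAA followed by any 2 bases and a second GAAA, was searched on both strands and was found in 1 of the 10 windows, that of Stat2, and in 3.44% of 32851 RefSeq windows of the same length. The match TTTCAGTTTC lay on the strand opposite to the gene, from 222 bases before the start. The letters of an interferon-gamma activated site, TTCNNNGAA, which reads alike on both strands, were found in the windows of Ifnar2 and Ifnar1 and in 8.3% of all windows. The match in Ifnar2, TTCCTGGAA, began 214 bases before the start, and that in Ifnar1, TTCACGGAA, began 5 bases before the start and ran across it. Neither motif's letters were found in the windows of Ifngr1, Ifngr2, Jak1, Jak2, Tyk2 or Irf9, and both Irf9 windows lie inside the span that GENCODE gives the gene. The 250 bases before the start of Stat2 (chr10:128270248-128270497, plus strand), of Ifnar2 (chr16:91372533-91372782, plus strand) and, as an example with neither motif, of Ifngr1 (chr10:19591699-19591948, plus strand) follow, 5′ to 3′, with matched letters in capitals.
Stat2: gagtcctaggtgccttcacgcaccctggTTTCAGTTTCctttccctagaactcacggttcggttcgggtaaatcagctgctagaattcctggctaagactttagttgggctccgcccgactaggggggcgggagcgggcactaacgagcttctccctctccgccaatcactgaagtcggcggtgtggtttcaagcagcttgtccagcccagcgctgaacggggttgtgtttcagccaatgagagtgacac
Ifnar2: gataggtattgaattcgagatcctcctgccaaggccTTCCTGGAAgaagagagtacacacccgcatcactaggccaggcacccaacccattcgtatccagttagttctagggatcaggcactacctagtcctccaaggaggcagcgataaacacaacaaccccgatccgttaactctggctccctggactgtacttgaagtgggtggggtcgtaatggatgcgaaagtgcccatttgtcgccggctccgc
Ifngr1: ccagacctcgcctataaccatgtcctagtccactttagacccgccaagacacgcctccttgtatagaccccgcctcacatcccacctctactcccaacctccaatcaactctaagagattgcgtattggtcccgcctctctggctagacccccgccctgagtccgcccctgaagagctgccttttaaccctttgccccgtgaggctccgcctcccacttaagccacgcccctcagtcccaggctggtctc

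In Female libraries Stat2 was at 62.47, 61.59 and 57.02 CPM, and in Male libraries at 142.8, 146.5 and 144.3 CPM. Every Male library held more than each Female library, and the groups were farther apart than for any of the other 8 genes. The fold was 2.4, with 1.26 as log2 fold change (SE 0.0349, edgeR adjusted p 1.12e-09). In WT Stat2 was at 101.6, 103.1 and 99.71 CPM and in KD at 70.97, 72.16 and 71.8 CPM, and it fell by 29.4% (log2 fold change -0.50, SE 0.0269, edgeR adjusted p 3.51e-07).

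Irf9 (ENSMUSG00000002325, chr14:55603571-55610030, plus strand) encodes the DNA-binding partner that brings ISGF3 to its response elements. It was at 47.34, 46.87 and 46.06 CPM in Female and at 76.75, 74.33 and 77.72 CPM in Male, 1.63-fold higher (log2 fold change 0.71, SE 0.0284, edgeR adjusted p 1.46e-08). WT libraries were at 82.49, 84.31 and 84.52 CPM and KD libraries at 62.67, 64.69 and 63.6 CPM, and the gene fell by 24% (log2 fold change -0.40, SE 0.0285, edgeR adjusted p 2.75e-06). Like Stat2, Irf9 showed no overlap of the groups in either table.

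Levels were compared between genes as CPM per kilobase of joined exons, within a table, since the tables were scaled separately. Ifngr1 stood highest in every group, at 238.7 ± 0.735 for Female, 209.2 ± 1.24 for Male, 164 ± 2.41 for WT and 105.2 ± 1.1 for KD (SD, n = 3). Jak1 followed, at 76.4, 70.3, 73.5 and 58.0 in the same order, and Ifnar1 came next, at 35.1, 24.7, 25.97 and 22.1. Ifngr2 stood lowest in each group, at 7.97, 6.22, 5.22 and 4.57. The first 3 places and the last were the same when the longest transcript was used as the length, and the order between them was not: Jak2 moved, for example, behind Ifnar2 in Female.

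Stat2 and Irf9 held the 7th and 8th places in Female, at 10.2 ± 0.494 and 8.68 ± 0.12 CPM per kilobase (SD, n = 3). In Male, Stat2 at 24.4 ± 0.313 overlapped with Ifnar1 at 24.7 ± 0.236 and with Ifnar2 at 23.4 ± 0.8, its neighbours in the order. Other neighbours whose samples overlapped were Jak2 and Ifnar2 in Female, and Jak2, Stat2 and Irf9 in KD, where they stood at 12.5, 12.1 and 11.8. All other neighbours in the order were apart in every sample of their group. These overlaps hold for joined exons as the length. With the longest transcript, the Male means were 32.88 for Stat2, 37.58 for Ifnar1 and 25.51 for Ifnar2, and overlaps were not compared with that length.

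**Figure D3:**
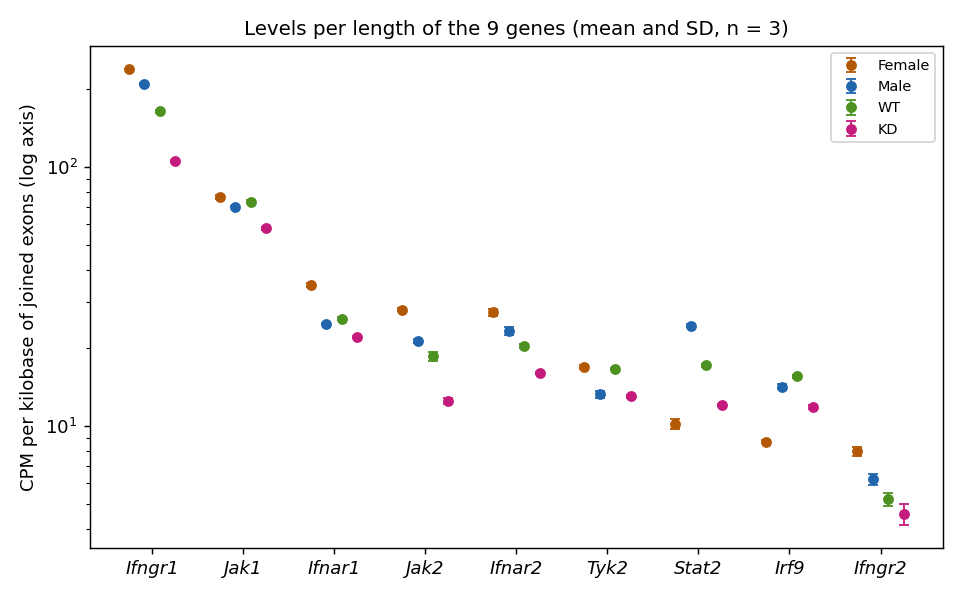
Mean CPM per kilobase of joined exons (vertical log axis) of the 9 genes in the 4 groups, with the SD (n = 3), in the order of the Female group. Ifngr1 is highest and Ifngr2 lowest in each group, and Stat2 and Irf9 are the genes whose Male level lies above the Female level.

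Proportions between partner chains were compared per kilobase of joined exons, and the size of each ratio depends on that choice of length. For Ifnar1 and Ifnar2 in Female, for example, the means were 35.07 and 27.53 with joined exons and 53.29 and 30.08 with the longest transcript. The choice scales a ratio alike in every library. No ratio passed the adjusted threshold, and none could, since the smallest exact permutation p with 3 against 3 samples is 0.1. The tests thus cannot tell whether the ratios changed. The ratio of Ifnar1 over Ifnar2 was 1.24, 1.29 and 1.3 in Female and 1.07, 1.02 and 1.09 in Male, and 1.27, 1.29 and 1.27 in WT against 1.37, 1.37 and 1.39 in KD. Ifngr1 over Ifngr2 was 30.3, 28.6 and 31 for Female libraries and 32.2, 33.2 and 35.7 for Male libraries. It was 32.2, 29.8 and 32.5 for WT libraries and 24.7, 21 and 23.8 for KD libraries. The lowest Ifngr1 to Ifngr2 ratios were thus those of the 3 KD libraries. Among the kinases, Jak1 over Jak2 had means of 2.72 for Female and 3.3 for Male, and of 3.96 for WT and 4.66 for KD, with no overlap in either table. Jak1 over Tyk2 had means of 4.53 for Female and 5.31 for Male. WT, at 4.44, and KD, at 4.46, overlapped in this ratio.

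Within ISGF3, Stat2 over Irf9 was 1.2, 1.19 and 1.13 in Female and 1.69, 1.79 and 1.69 in Male, against 1.12, 1.11 and 1.07 in WT and 1.03, 1.01 and 1.03 in KD. This ratio did not overlap between the groups in either table. The tests of these ratios, adjusted as a family of 12 of which 10 are given here, each had an exact two-sided permutation p of 0.1, the smallest that 3 against 3 samples allow, except Jak1 over Tyk2 in KD against WT with a p of 1, and after Benjamini-Hochberg adjustment they stood at 0.109 and 1.

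The targets of the pathway were described by lists, which were chosen with earlier results of these data known and were not tested as sets. All 22 listed ISGF3 target genes were called higher in Male, with a median log2 fold change of 2.82, where 23.5% of all genes were called higher. All 22 were called lower in KD, with a median of -1.41, where 18.4% of all genes were called lower. Mx1, which encodes an antiviral GTPase, was at 4.37, 4.76 and 4.49 CPM in Female and 68.8, 69.5 and 65.9 CPM in Male, and at 71.0, 73.4 and 74.6 CPM in WT and 28.5, 29.6 and 30.8 CPM in KD. Ifit1, which encodes a protein that binds foreign RNA, was at 20.3, 20.0 and 20.7 CPM in Female and 45.4, 50.3 and 46.8 CPM in Male. It was at 21.2, 19.4 and 20.4 CPM in WT and at 3.74, 3.95 and 3.76 CPM in KD, with -2.41 as log2 fold change (SE 0.0638, edgeR adjusted p 3.65e-09). Oas3 and Ddx58, which encode sensors of viral RNA, had log2 fold changes of 1.93 and 1.43 in Male and -0.98 and -1.09 in KD. The targets' changes were of a larger size than those of Stat2 and Irf9 at the median of the list in each comparison.

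Targets of interferon gamma were called in both directions. Of 15 listed genes, 10 were called higher and 2 lower in Male, and 9 were called higher and 3 lower in KD. Of all genes, 23.5% were called higher and 26.3% lower in Male, and 16.8% higher and 18.4% lower in KD. Their median log2 fold changes were 0.30 and 0.16, beside 0.0106 and 0.0124 over all genes. Gbp2, which encodes a guanylate-binding protein, was at 64.2, 64.4 and 60.7 CPM in Female and 119.5, 117.4 and 112.8 CPM in Male. It was at 134.4, 134.7 and 135.2 CPM in WT and 248.5, 247.8 and 245.2 CPM in KD, with 0.88 as log2 fold change (SE 0.0199, edgeR adjusted p 2.39e-09). Gbp5 rose by 0.87 in KD and had a log2 fold change of -0.24 in Male against Female. Gbp4 fell in KD (log2 fold change -0.34) and did not pass the threshold between the sexes. Iigp1 and Irgm1, which encode immunity-related GTPases, rose in both comparisons, with log2 fold changes of 2.31 and 1.27 in Male and 0.59 and 0.31 in KD. Ifngr1, Jak1 and Jak2 were thus called lower in KD and 9 of the 15 targets higher.

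**Figure D4:**
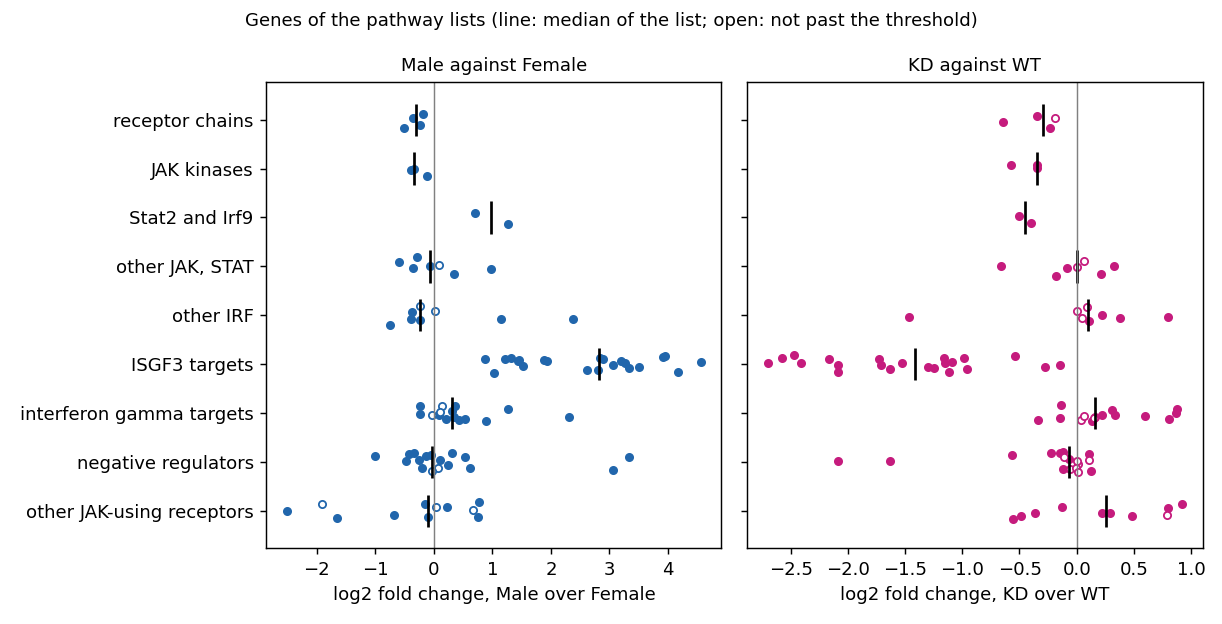
Log2 fold change (horizontal axes) of each tested gene of 9 lists, Male over Female on the left and KD over WT on the right. Filled points passed an adjusted p under 0.05, and the black line is the median of the list. The ISGF3 targets lie wholly to the right of 0 on the left and wholly to the left of 0 on the right, and the interferon gamma targets lie on both sides in each panel.

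Other members of the STAT and IRF families were mixed. Of 7 other JAK and STAT genes, 2 were called higher and 4 lower in Male, and 2 higher and 3 lower in KD. Over all genes, 23.5% were called higher and 26.3% lower in Male, and 16.8% higher and 18.4% lower in KD. Stat4, which serves the IL12 receptor, was lower in Male by a log2 fold change of -0.35 and in KD by -0.66, from 147.6 to 152.1 CPM in WT to 94.16 to 94.72 CPM in KD. Jak3, the kinase of the common gamma chain, was called higher in both, with 0.35 and 0.33. Stat5b, which serves IL2 signals, had log2 fold changes of -0.60 and -0.09. Of 8 other IRF genes, 2 were called higher and 4 lower in Male, and 4 higher and 1 lower in KD, beside the same shares of all genes. Irf7, an interferon-inducible driver of type I interferon genes, rose from 18.85 to 19.03 CPM in Female to 96.05 to 100.8 CPM in Male, and was at 65.53 to 66.37 CPM in WT and 23.26 to 24.54 CPM in KD. It was the only other IRF gene called lower in KD (log2 fold change -1.47, SE 0.0353, edgeR adjusted p 3.26e-09). Irf4, which is induced by T cell receptor signals, was called in the opposite sense each time, with -0.39 and 0.80. Irf8 rose from 41.84 to 44.18 CPM in Female to 91.45 to 97.07 CPM in Male (edgeR adjusted p 1.41e-09) and had a log2 fold change of 0.04 in KD (edgeR adjusted p 0.165), and Irf1, another listed interferon gamma target, had -0.23 and 0.22.

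Of 17 genes listed as negative regulators, 7 were called higher and 8 lower in Male, and 2 higher and 8 lower in KD. Over all genes these shares were 23.5% and 26.3% in Male, and 16.8% and 18.4% in KD. The median log2 fold changes of the list were -0.03 and -0.07. Whether each of the 17 limits the pathway in these cells was not tested. Usp18, which encodes a protease that binds IFNAR2 and limits its signalling, is also one of the listed ISGF3 targets, as is Isg15, a ubiquitin-like protein with log2 fold changes of 3.06 and -2.09. Usp18 was at 5.85, 6.48 and 6.06 CPM in Female, 62.0, 62.1 and 60.4 CPM in Male, 30.1, 30.7 and 28.2 CPM in WT and 9.44, 10.0 and 9.27 CPM in KD. Its log2 fold changes were 3.33 and -1.63 (SE 0.0458 and 0.0528, edgeR adjusted p 1.11e-11 and 1.08e-08). Ptprc, which encodes the phosphatase CD45, fell by 0.57 on the log2 scale in KD. Cish, a feedback inhibitor induced by STAT5, had log2 fold changes of 0.62 and -0.07.

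Ifnar2, Il10rb, Ifnar1 and Ifngr2 stand in a row on chromosome 16, all on the plus strand, and their changes were compared with those of their neighbours. Il10rb encodes a chain shared by the receptors for IL10 and interferon lambda and starts 574 bases beyond the end of Ifnar2. It was at 68.9, 68.3 and 71.2 CPM in Female and 77.7, 77.9 and 77.3 CPM in Male, and so rose in Male (log2 fold change 0.16, SE 0.025, edgeR adjusted p 0.000338) where its 3 relatives fell. In KD it fell by 0.49 on the log2 scale (SE 0.0329, edgeR adjusted p 1.75e-06), from 75.1 to 78.8 CPM in WT to 53.8 to 56.4 CPM. Among the 8 protein-coding genes tested from 100 kb before Ifnar2 to 100 kb after Ifngr2, 2 were called higher and 4 lower in Male, and 1 higher and 5 lower in KD, where 23.5% and 26.3% of all genes were called in Male and 16.8% and 18.4% in KD. These counts include the 3 receptor genes named above. Dnajc28 had the largest change of the window in Male, at -1.66 on the log2 scale (edgeR adjusted p 9.55e-06), and did not pass the threshold in KD at under 1 CPM. Gart, an enzyme of purine synthesis, was called higher in both comparisons, with log2 fold changes of 0.53 and 0.31, and Son, which lies beside it, had 0.02 and -0.08.

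**Figure D5:**
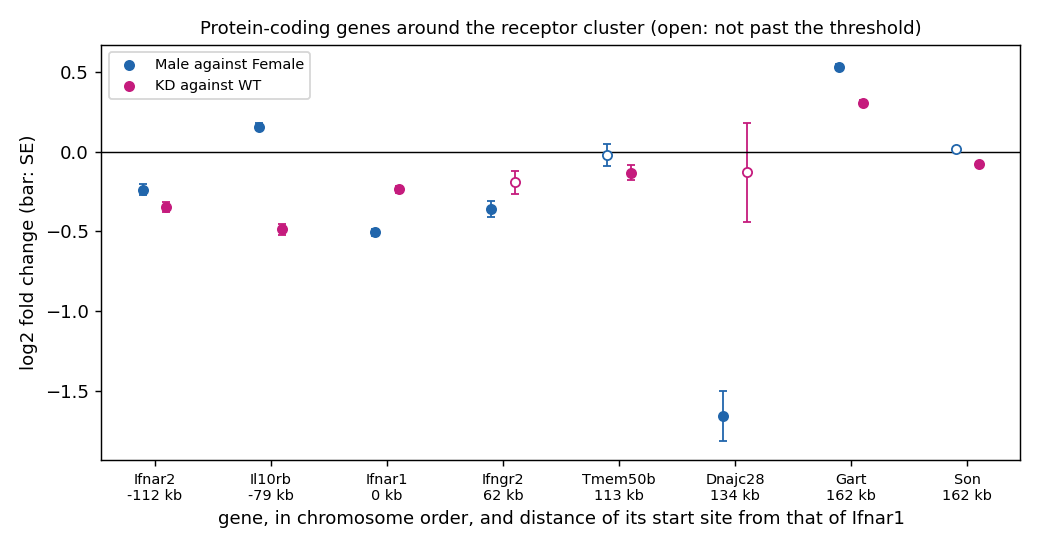
Log2 fold change, with its SE, of the 8 protein-coding genes around the receptor genes on chromosome 16, in chromosome order. The distance of each start site from that of Ifnar1 in kilobases stands below its name, and open points did not pass an adjusted p under 0.05. Il10rb lies above 0 in Male against Female between Ifnar2 and Ifnar1, which lie below it.

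Neighbours of Stat2 and Irf9 were counted in the same way. Within 100 kb of Stat2, 3 genes were called higher and 4 lower of 13 tested in Male against Female, and 1 higher and 1 lower of 15 in KD against WT. Within 100 kb of Irf9, 11 were called higher and 4 lower of 20, and then 2 higher and 5 lower of 20. Over all genes these shares were 23.5% higher and 26.3% lower in Male, and 16.8% and 18.4% in KD. Rnf31, whose end overlaps the start of Irf9 on the same strand over 123 exon bases, had log2 fold changes of 0.20 and -0.17. Psme2, the nearest tested gene without overlap on the same side, had 0.94 and 0.01, and Rec8, on the other side, had 0.02 and -0.14 (edgeR adjusted p 0.976 and 0.795). The Irf9 counts are uncertain to the extent that reads from these 123 bases, 2.28% of its exon length, could be given to either gene. Tyk2 shares 8.07% of its exon length with the antisense gene 1700084C06Rik, which had 2 to 21 counts per library, and Ifnar2 shares 9.46% with the gene model Gm21970, which had 0. Between 0% and 8.78% of the 31-base subsequences of the 9 genes occurred in transcripts of another gene.

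For each of the 9 genes, the genes most like it were sought among 11868 genes by the smaller of the Pearson correlations of log2 CPM over the 6 samples of each table. The points share their libraries and fall into 2 groups each, so these values mostly restate the order of the groups and are given as a description. Nearest to Stat2 were Ifi214, an interferon-inducible gene of chromosome 1 (0.999 and 0.999), and Elmo2 (0.999 and 0.998). Nearest to Irf9 were Hip1 (0.999 and 0.998) and Rsad2, which encodes the antiviral protein viperin (0.998 and 0.998). Ablim1 and Cd247 were nearest to Ifnar1, Med10 and Lsm10 to Ifnar2, Pcyt1a to Ifngr1, and Hscb and Maf1 to Ifngr2. For Jak1 they were Ncor1 and Atf6, for Jak2 Sntb1 and Coro2a, and for Tyk2 Abi1 and Wdr26, with correlations from 0.963 to 0.999 over all these genes. Stat2 and Irf9 correlated with each other at 0.997 in the Female and Male table and 0.996 in the other. Values this high were not particular to this pair. Ifnar1 and Jak2 had 0.998 in the Female and Male table, and Ifngr1 and Stat2 had 0.998 in the other.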

How the data were processed

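RNA sequencing of 12 samples (Female, Male, WT and KD, with 3 each) was analysed from 2 deposited tables of raw counts per gene, all of them whole numbers. Whether they count reads or were derived from coverage was not given in the sources used here, so a printed count may not equal a number of reads. Per the submitters' processing notes, bcl2fastq 2.20.0, HISAT2, StringTie and DESeq2 were used with build mm10, with no role given. How reads were counted, on which annotation and whether by strand, was not given in the sources used here, and libraries were stranded and depleted of ribosomal RNA per the labels' protocols. Identifiers were matched to GENCODE M21 (GRCm38), which held 55227 of 55487 and left 260 unmatched.

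Each table was fitted alone with edgeR 4.0.16 in R 4.3.3: filterByExpr, TMM factors, the quasi-likelihood test and Benjamini-Hochberg adjustment over all genes tested. The adjusted p threshold was 0.05. SEs are the absolute log2 fold change over the square root of F. CPM used TMM-scaled totals of the genes tested. Ratios were tested with exact permutation tests in scipy 1.17.1. On simulated counts the share of false calls was above the threshold with dispersions drawn gene by gene and below it with trended ones, so calls near the threshold are less certain. At 100 to 300 counts the variance of replicates over their mean averaged 6.31 to 7.32.

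The 9 genes, the lists and the tests were chosen with earlier results of these data known, and no list was tested as a set. All 9 genes were named, with up to 3 genes of smallest p per other list and comparison, overlapping and nearest tested genes, and the 2 most alike genes each. Dnajc28, Gart and Son were named after their values were seen. Alternatives were DESeq2 1.42.0, limma-voom (limma 3.58.1), other scaling factors and filters, thinning, counts divided by 4, protein-coding genes, all 12 samples in one fit, a stricter call rule, the replicate number as a block and single libraries left out. Some results of these lists, ratios and most alike genes are not reported here.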

Additional observations from a re-analysis of the deposited data

How the results depend on the processing

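Over 12 other settings and 6 fits that each left out a library, no gene of the 9 reversed in either comparison. Each of the 9 in Male against Female, and each of the 8 called in KD against WT, stayed past the threshold. With a minimum absolute log2 fold change of 0.5 added, 4321 genes were called in Male against Female, with 1 of the 9 lower (Ifnar1) and 2 higher, and 2031 in KD against WT, with 3 lower (Ifngr1, Jak2 and Stat2), which follows from the stricter rule. Without a library, 9190 to 9399 genes were called in Male against Female and 6073 to 6685 in KD against WT, with 7 of the 9 lower in the former and 8 to 9 in the latter.

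Ifngr2 in KD against WT passed the threshold with DESeq2 (adjusted p 0.0332), among protein-coding genes (0.0438), with all 12 samples in one fit (0.0375), without KD replicate 2 (0.0118) and with the replicate block (log2 fold change -0.19, edgeR adjusted p 0.0193). The cause was not tested. With the replicate block 9740 and 6688 genes were called, and the block changed no other call among the 9 genes. Same-numbered samples correlated in their deviations at -0.0562 to 0.0312 in Male against Female and at -0.0748 to 0.0274 in KD against WT. Whether they share a mouse, a culture or handling was not given in the sources used here, and these values cannot decide it. Library totals alone moved the share of higher calls in KD against WT from 47.7% to 57.1%. Jak1 in Male against Female moved from -0.12 to -0.07 on the log2 scale among protein-coding genes. Ifngr2 had the fewest counts of the 9 genes.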

Other observations

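Other cytokine receptors that hand their signal to JAK1, JAK2 or TYK2 were called in both directions. Of 11 such chains tested in Male against Female, 3 were called higher and 5 lower, and of 10 in KD against WT, 5 were called higher and 4 lower. Over all genes, 23.5% were called higher and 26.3% lower in Male, and 16.8% higher and 18.4% lower in KD. Il2rb, which encodes the shared beta chain of the IL2 and IL15 receptors, was at 767.4, 774.8 and 774.7 CPM in Female and at 1295, 1328 and 1281 CPM in Male (log2 fold change 0.75, SE 0.0162, edgeR adjusted p 2.14e-10). It fell from 2241 to 2282 CPM in WT to 1495 to 1612 CPM in KD (log2 fold change -0.56, SE 0.0251, edgeR adjusted p 1.07e-07). Il7r, the receptor of the survival cytokine IL7, had log2 fold changes of -2.51 and 0.80.

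Both chains that form the IL12 receptor with TYK2 and JAK2 were lower in KD. Il12rb1 was at 282.4, 282.8 and 282.4 CPM in WT and 222.1, 220.9 and 217.2 CPM in KD (log2 fold change -0.36, SE 0.0188, edgeR adjusted p 2.99e-07). Il12rb2 was at 292.1, 290.5 and 292.5 CPM in WT and 208.1, 211.8 and 204.3 CPM in KD (log2 fold change -0.49, SE 0.0203, edgeR adjusted p 6.35e-08). In Male against Female, Il12rb1 rose by 0.77 on the log2 scale and Il12rb2 had 0.04 (edgeR adjusted p 0.115). Among the other class II cytokine receptor chains, Il10ra was at 63.4 to 66.8 CPM in Female and 100.8 to 102.1 CPM in Male, a log2 fold change of 0.63, and fell by 0.12 on that scale in KD. Ifnlr1, the interferon lambda receptor chain, had at most 26 counts in a library and was called lower in Male (edgeR adjusted p 0.0262), and Il20rb did not pass the threshold in either comparison (edgeR adjusted p 0.0906 and 0.36).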
